A study of Mus musculus with 2 samples.

Results

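KEAP1, NFE2L2 (which encodes NRF2), BACH1 and HK2 are the 4 genes of the axis that the study places downstream of the E3 ubiquitin ligase UBR7. Their H2BK120ub peaks were read from 2 ChIP-seq peak lists, 1 library of wild-type liver cells (WT) and 1 library of Alb-Cre;UBR7fl/fl liver cells (UBR7-KO). A peak was taken as a member when at least 1 bp of it lay in the gene span or within 5 kb on either side. This gave 27 peaks, 11 from the 101866 of the WT list and 16 from the 127444 of the UBR7-KO list. In UBR7-KO, Cre recombinase driven by the albumin promoter removes the floxed Ubr7 alleles from hepatocytes, so cells of the liver that do not use this promoter keep the gene. The labels give the control as wild type, and the study calls its control mice UBR7 WT littermates. Whether the control carried Cre is not given in the sources used here. Both groups came from male mice of the C57BL/6 background and of the same stated age, and the labels describe the cells as conditionally immortalized and grown in serum-containing medium, whereas the study's methods describe the ChIP cells as primary liver cells. Since each genotype has 1 library, every difference below is a difference between 2 libraries without replicate error, and no test was run.

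The peak positions are those of the human genome hg19 although the cells are labelled as mouse, so the genes are called by their human symbols and each position is an hg19 position. The sources used here do not explain why cells labelled as mouse have human positions. The labelled species, the labelled cell type and the loss of Ubr7 were not checked here, since no hg19 annotation was used beyond the 4 gene spans. The genotype of each list therefore rests on its label. The WT peaks covered 11.6% of hg19 and the UBR7-KO peaks 10.3%, and the number of reads behind each list is unknown.

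H2BK120ub is a single ubiquitin on a lysine near the end of histone H2B, a mark laid down on the bodies of transcribed genes as RNA polymerase II moves through them. KEAP1 is the adaptor of a cullin ubiquitin ligase that holds NRF2 at a low level. When KEAP1 is inactive, NRF2 gathers in the nucleus and, with small MAF proteins, switches on antioxidant genes through antioxidant response elements. BACH1 is a heme-sensitive repressor that competes for the same elements. HK2 is a hexokinase that adds a phosphate to glucose at the entry to glycolysis. Normal hepatocytes rely on glucokinase for this step, whereas liver tumours often use HK2.

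The study centres on the Keap1 promoter, and the start sites of NFE2L2 and HK2 were each covered in a single list, so the promoters of these 3 genes are shown. They are the mouse promoters of RefSeq on GRCm38.p6, from 250 bases before the start site to 50 after it, all on the minus strand, and not the human sequence under the peaks, which was not used here. Keap1 lies at chr9:21239283-21239582, Nfe2l2 at chr2:75704614-75704913 and Hk2 at chr6:82774405-82774704. Capitals mark every match, on either strand, to the core of the antioxidant response element, TGACNNNGC, and to the GC box, GGGCGG.
Keap1: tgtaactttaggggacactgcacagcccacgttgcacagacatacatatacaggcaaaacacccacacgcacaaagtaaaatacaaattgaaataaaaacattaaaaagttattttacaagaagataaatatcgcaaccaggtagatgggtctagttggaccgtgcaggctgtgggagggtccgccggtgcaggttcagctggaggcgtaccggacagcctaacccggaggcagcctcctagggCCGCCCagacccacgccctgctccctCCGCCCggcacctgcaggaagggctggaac
Nfe2l2: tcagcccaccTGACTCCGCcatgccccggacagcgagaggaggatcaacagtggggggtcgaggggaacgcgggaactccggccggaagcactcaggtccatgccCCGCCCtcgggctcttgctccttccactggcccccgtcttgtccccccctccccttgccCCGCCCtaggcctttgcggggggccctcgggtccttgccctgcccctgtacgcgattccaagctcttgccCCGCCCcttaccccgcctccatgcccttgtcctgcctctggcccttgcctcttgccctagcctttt
Hk2: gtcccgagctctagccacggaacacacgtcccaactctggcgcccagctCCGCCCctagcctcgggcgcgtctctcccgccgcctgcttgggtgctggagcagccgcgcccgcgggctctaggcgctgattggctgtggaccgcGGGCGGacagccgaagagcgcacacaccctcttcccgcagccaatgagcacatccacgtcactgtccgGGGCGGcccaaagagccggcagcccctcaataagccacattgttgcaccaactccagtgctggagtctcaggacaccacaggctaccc
The Nfe2l2 promoter held 1 match to the response element core, TGACTCCGC, beginning 240 bases before the start site, and the other 3 promoters held 0. This core occurred in 12.4% of 32851 mouse promoters of the same length. The GC box was found 2 times in Keap1, 3 times in Nfe2l2, 3 times in Hk2 and 4 times in Bach1, against 35.7% of all promoters with at least 1 match. The G and C content was 53.3% in Keap1 and 68.7% in Nfe2l2, 69.7% in Bach1 and 67.3% in Hk2. A match is a description of the letters and not a site in use.

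Peaks were found in all 4 windows in both lists. Their positions overlapped in part at KEAP1, BACH1 and HK2 and not at all at NFE2L2. KEAP1 was covered over most of its window, HK2 was covered in part, and BACH1 and NFE2L2 were covered to less than 10%. The start sites of KEAP1 and BACH1 lay in a peak of both lists. The start sites of NFE2L2 and HK2 lay in a UBR7-KO peak and in no WT peak. How often other start sites are covered in a single list is unknown here, since no hg19 annotation was used beyond the 4 gene spans. The 4 windows together span 200147 bp, of which the WT peaks covered 25.7% and the UBR7-KO peaks 21.5%. They shared 25274 bp, 49.2% of the WT coverage and 58.8% of the UBR7-KO coverage.

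**Figure D1:**
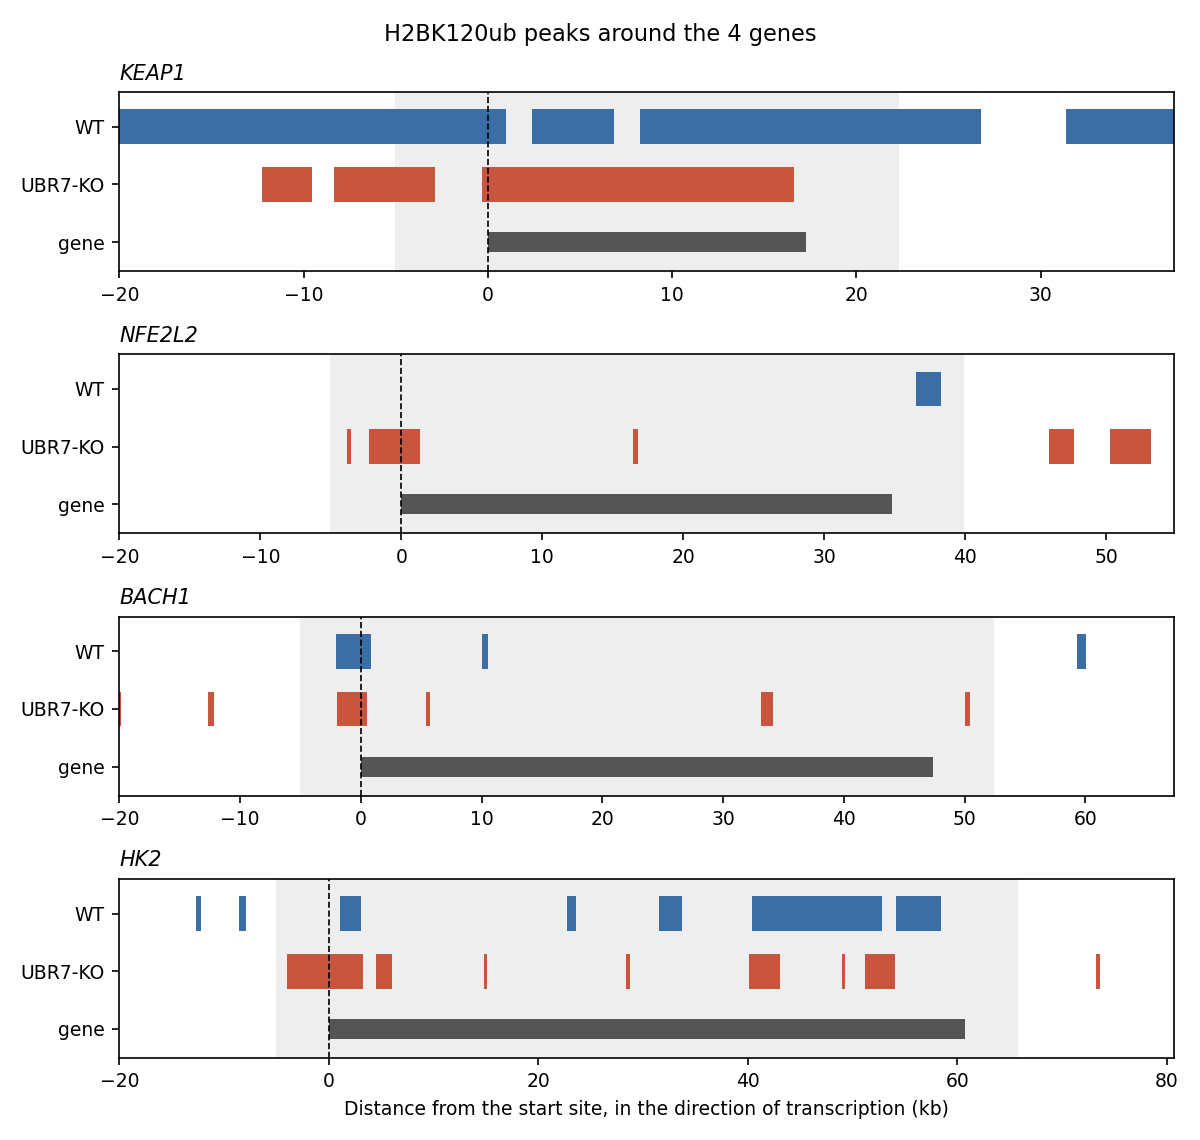
H2BK120ub peaks of the WT list (blue) and the UBR7-KO list (red) around each gene (dark bar), with the distance from the start site in kb on the horizontal axis and the window of 5 kb on each side shaded. The dashed line marks the start site, which both lists cover at KEAP1 and BACH1 and the UBR7-KO list alone at NFE2L2 and HK2; peaks outside the shading are no members.

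To ask whether H2BK120ub lies at the KEAP1 promoter in each genotype, KEAP1 was examined first. The gene spans 10596796 to 10614054 on chromosome 19 and is transcribed from the higher position, on the minus strand. Both lists covered the start site. The WT peak over it was 22349 bp long (10613061 to 10635409). It reached 21355 bp upstream and 993 bp into the gene. The UBR7-KO peak over it was 16912 bp long (10597434 to 10614345). It reached 291 bp upstream and 16620 bp into the gene. The peak that crossed the start site thus lay mainly upstream in WT and mainly within the gene in UBR7-KO.

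Within 1 kb of the KEAP1 start site, 99.7% of the bases were covered in WT and 64.6% in UBR7-KO, a difference of -35.1 points. Its size rested on the width of the region, whose edge lies 7 bp beyond the end of the WT peak. With 0.5, 2 and 5 kb on each side it was -20.9, -17.5 and -11.9 points, and it was 0 when peaks within 5 kb of each other were merged. The upstream 5 kb was covered completely in WT. In UBR7-KO it was covered to 47.98%, with an uncovered stretch of 2601 bp between the peak at the start site and the next peak upstream, a peak of 5469 bp (10616947 to 10622415). That stretch was covered in WT. Inside the gene the order turned, since the WT list left 1396 bp and 1406 bp uncovered between its peaks where the UBR7-KO peak was unbroken. The first 5 kb of the gene was covered to 71.9% in WT and 100% in UBR7-KO. For the gene span these shares were 83.8% and 96.3%. Breaks of this width are near the narrowest of the whole lists, 1169 bp for WT and 1097 bp for UBR7-KO. At the far end, the WT peak of 18481 bp (10587309 to 10605789) ran on past the gene and filled the 5 kb downstream, whereas the UBR7-KO peak ended inside the gene and left it at 0%.

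Over the whole KEAP1 window of 27259 bp, 89.7% was covered in WT and 69.8% in UBR7-KO, a difference of -19.9 percentage points (UBR7-KO minus WT). No base was free of peaks in both lists. A covered share higher in WT by 10 points or more was also found in 14.0% of the windows of this length laid end to end over hg19, and one higher in UBR7-KO in 12.2%. The median window of this length was covered to 1.92% in WT and 3.35% in UBR7-KO. These percentages are thus not a background of windows covered as widely as KEAP1. The direction of the KEAP1 difference rested on the flanks. In the gene span alone UBR7-KO was higher by 12.5 points, and with 20 kb on each side the difference was -43.1 points. Chromosome 19 as a whole was covered to 43.0% in WT and 33.2% in UBR7-KO. The WT share was also higher on chromosome 2 (10.5% against 9.16%), chromosome 21 (11.6% against 9.31%) and all of hg19 (11.6% against 10.3%). Whether the KEAP1 difference is tied to these shares was not tested.

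The KEAP1 peaks were broad and not steep. The fold enrichment of the peak caller was taken as pileup over local background with 1 added to each. It was 2.18, 2.21 and 2.12 for the 3 WT peaks in order of transcription. The median of the WT list was 2.20. The outer peaks were among the longest of the list, at 1.95% and 2.87% from the top by length. In UBR7-KO the fold enrichment was 2.03 for the upstream peak and 2.10 for the peak over the gene, against a median of 2.15. By fold enrichment the WT peak at the start site ranked 55617 of 101866 and the UBR7-KO peak at the start site ranked 80489 of 127444.

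NFE2L2 was the most sparsely marked gene in WT. It spans 178095031 to 178129859 on chromosome 2, on the minus strand. The WT list had 1 peak in the window, of 1746 bp (178091604 to 178093349), and it lay 1682 bp past the end of the gene. The gene span itself was covered to 0% in WT. The UBR7-KO list had 3 peaks. The largest, of 3584 bp (178128537 to 178132120), covered the start site from 2261 bp upstream to 1322 bp into the gene, and within 1 kb of the start site the coverage was 100%. The nearest WT peak to it was 26385 bp away. The others were 2 short peaks of 343 bp and 339 bp, 1 upstream and 1 inside the gene.

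The UBR7-KO peak at the NFE2L2 start site was weak for its list. It had a pileup of 4.72 and a fold enrichment of 2.02, which ranked 117826 of 127444. It was lost when the UBR7-KO list was limited to the size of the WT list, and the start site was then covered to 0% in both. The upstream peak of 343 bp was steeper, with a pileup of 5.80, a fold enrichment of 2.47 and a rank of 14112. Coverage of the NFE2L2 window was 3.89% in WT and 9.52% in UBR7-KO, a difference of 5.62 points. None of the covered bases was shared. This difference did not reach 10 points, which UBR7-KO was ahead by in 9.73% of windows of this length and WT in 12.8%. With lists of equal size the difference reversed, to -2.37 points. The median window of the NFE2L2 length was covered to 3.19% in WT and 4.39% in UBR7-KO, less than the NFE2L2 window in either list.

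At BACH1 the lists matched over the start site and nowhere else in the window. The gene spans 30671116 to 30718469 on chromosome 21, on the plus strand. The start site lay in a WT peak of 2917 bp (30669022 to 30671938) and in a UBR7-KO peak of 2426 bp (30669157 to 30671582), and the UBR7-KO peak lay wholly inside the WT peak. Their upstream edges were 2094 bp and 1959 bp from the start site, and their edges in the gene 822 bp and 466 bp from it. Within 1 kb of the start site, 91.1% was covered in WT and 73.3% in UBR7-KO, a difference of -17.8 points. With 0.5, 2 and 5 kb on each side it was -3.40, -9.92 and -4.91 points, and merging peaks within 5 kb turned it to 8.90 points.

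The BACH1 start-site peaks differed in their standing. The WT peak had a pileup of 8.70 and a fold enrichment of 2.79, and ranked 5805 of 101866. Its fold enrichment was the highest of the 11 WT peaks in the 4 windows. The UBR7-KO peak had a pileup of 4.51 and a fold enrichment of 2.09, and ranked 85551 of 127444. The median pileup was 6.45 over the whole WT list and 4.41 over the whole UBR7-KO list. The background is recovered from the same pileup and fold enrichment, so a rank by pileup over it is no separate measurement. By that rank the WT and UBR7-KO start-site peaks stood at 7112 and 100529. Thus the WT peak was in the top 5.70% of its list by fold enrichment, and its counterpart at the same place stood at 67.1%. A limit of 2.5 lies between the fold enrichments of these peaks. It therefore left the start site covered to 91.1% in WT and 0% in UBR7-KO by construction. This limit kept 16.9% of the whole WT list and 9.77% of the whole UBR7-KO list. How often overlapping peaks elsewhere differ as much in rank was not counted.

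The rest of BACH1 was nearly bare. WT had a further peak of 541 bp, 10013 bp into the gene. UBR7-KO had peaks of 325 bp and 994 bp inside the gene and of 468 bp past its end, and none of these 4 peaks overlapped the other list. The peak of 468 bp was the steepest UBR7-KO peak in the BACH1 window, with a fold enrichment of 2.46 and a rank of 15139. The gene beyond its first 5 kb was covered to 1.28% in WT and 3.11% in UBR7-KO. The whole window was covered to 6.03% and 7.35%, a difference of 1.32 points, whose direction changed when peaks under 500 bp were left out, to -0.066 points. WT was ahead by 10 points or more in 12.2% of windows of this length, and UBR7-KO in 8.58%. The median window of this length was covered to 3.48% in WT and 4.71% in UBR7-KO, less than the BACH1 window in either list. Chromosome 21 was covered to 11.6% and 9.31%.

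HK2 carried the most peaks, 5 in WT and 7 in UBR7-KO. It spans 75059782 to 75120486 on chromosome 2, on the plus strand. At its 5' end the UBR7-KO list had a peak of 7217 bp (75055810 to 75063026) from 3972 bp upstream to 3244 bp into the gene. The WT list had a peak of 2024 bp (75060863 to 75062886) that began 1081 bp inside the gene and lay wholly within the UBR7-KO peak. The upstream 5 kb of HK2 was therefore covered to 0% in WT and 79.4% in UBR7-KO. Within 1 kb of the start site, coverage was 0% and 100%, respectively. With 0.5 kb on each side it was also 0% and 100%, with 2 kb 23.0% and 100%, and with 5 kb 20.2% and 76.7%. The WT peak began 81 bp beyond the edge of the 1 kb region.

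The order at HK2 turned towards the 3' end. The WT list had a peak of 12419 bp (75100141 to 75112559), followed by a peak of 4245 bp (75113950 to 75118194). Over the longer of the 2, the UBR7-KO list had 3 peaks of 2915, 299 and 2879 bp, the last of which reached past its end, and together they shared 37.1% of its length. The second WT peak had no counterpart, and the nearest UBR7-KO peak was 125 bp away. Beyond its first 5 kb the gene was covered to 35.4% in WT and 14.0% in UBR7-KO. Thus UBR7-KO coverage was higher around the start site and WT coverage was higher in the body of the gene.

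By fold enrichment, the peaks at the HK2 5' end stood apart. The WT peak had a pileup of 7.89 (median of its list 6.45) and a fold enrichment of 2.63, rank 10500 of 101866. The UBR7-KO peak over the start site had a pileup of 4.48 (median of its list 4.41). Its fold enrichment was 2.06, rank 96118 of 127444. The steepest UBR7-KO peak in HK2 was its neighbour of 1481 bp, 4544 bp into the gene, with a fold enrichment of 2.42 and a rank of 17683. The broad WT peaks of the gene body were weak, at 2.08 and 2.02. Over the HK2 window of 70705 bp, 30.7% was covered in WT and 21.9% in UBR7-KO, a difference of -8.83 points. This is short of 10 points, by which WT was ahead in 11.7% of windows of this length and UBR7-KO in 7.62%. The median window of this length was covered to 3.67% in WT and 4.91% in UBR7-KO, less than HK2 in either list. In the gene span alone the HK2 difference was -16.8 points. Chromosome 2 was covered to 10.5% and 9.16%.

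**Figure D2:**
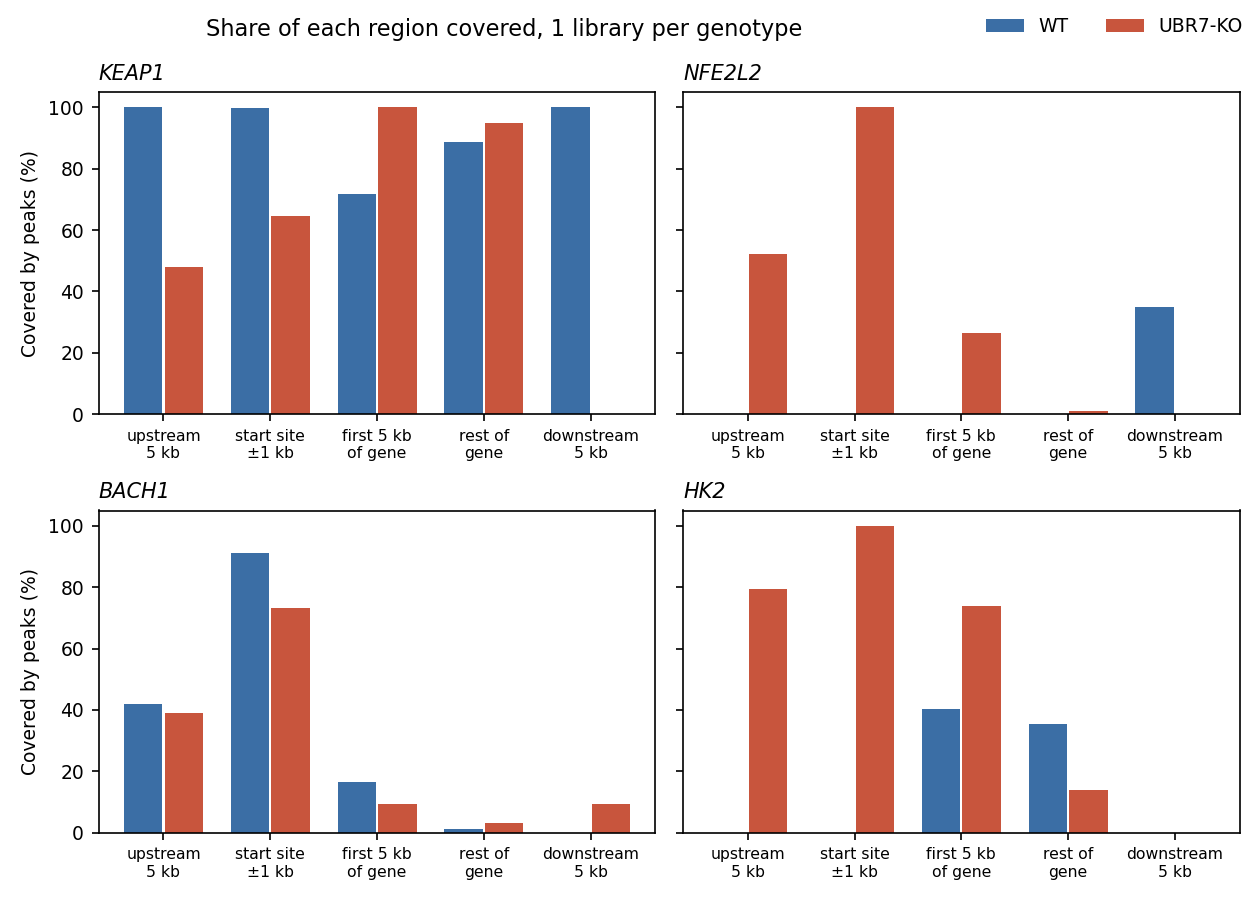
Share of bases covered by peaks (vertical axis, percent) in 5 regions of each gene, for the WT list (blue) and the UBR7-KO list (red), with 1 library each and no error bars. The region of 1 kb on each side of the start site overlaps its neighbours; there the UBR7-KO share is 100% at NFE2L2 and HK2, where WT is at 0%, and below WT at KEAP1 (64.6% against 99.7%) and BACH1 (73.3% against 91.1%).

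The 4 genes were then set side by side. Within 1 kb of the start site, UBR7-KO coverage was lower at KEAP1 and BACH1 by amounts that changed with the width and turned at BACH1 on merging, and higher by 100 points at both NFE2L2 and HK2. The latter values were 39.3 and 56.5 points with 5 kb on each side, and that of NFE2L2 was 0 with lists of equal size. No share over other start sites stands beside these values, so they are not a result particular to these genes. The 4 peaks that covered a start site in UBR7-KO had fold enrichments of 2.10, 2.02, 2.09 and 2.06 at KEAP1, NFE2L2, BACH1 and HK2. All 4 were below the median of their list. The 2 WT peaks over a start site had 2.18 at KEAP1 and 2.79 at BACH1, below and above the median of theirs. When only peaks with a pileup 3 or more times the recovered background were kept, 0% was covered within 1 kb of all 4 start sites in UBR7-KO. In WT, BACH1 was still covered to 91.1% and the other 3 to 0%. The BACH1 start-site peaks stood at 3.50 times the background in WT and 2.76 times in UBR7-KO, which fixes the outcome there. This limit kept 25.3% of the whole WT list and 44.9% of the whole UBR7-KO list.

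**Figure D3:**
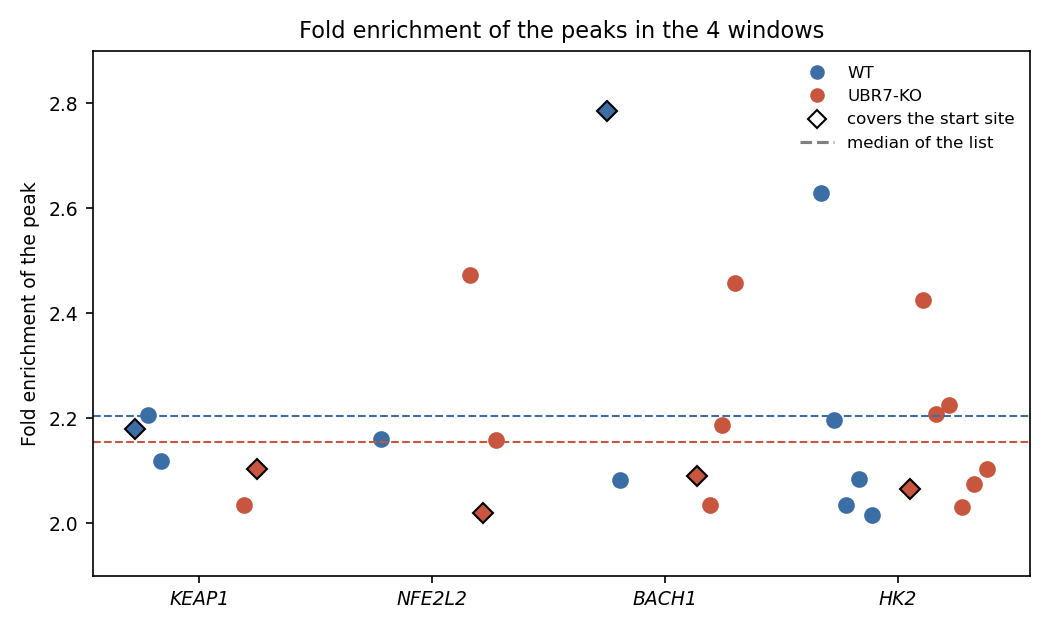
Fold enrichment (vertical axis, a ratio that starts near 2 in both lists) of each of the 27 peaks in the 4 windows, ordered by position within each gene and list; diamonds cover a start site and dashed lines mark the median of each list, 2.20 in WT (blue) and 2.15 in UBR7-KO (red). Among the WT peaks, those at the BACH1 start site (2.79) and the HK2 5' end (2.63) stand highest. The 4 UBR7-KO peaks over a start site lie below the median of their list.

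By fold enrichment, 8 of the 11 WT peaks and 9 of the 16 UBR7-KO peaks ranked below the middle of their list, where 50% of each whole list lies by construction. The UBR7-KO count is thus near that of its list. Peak length ran from 541 to 22349 bp in WT (median 2917 bp, against 1584.5 bp over its list) and from 283 to 16912 bp in UBR7-KO (median 1237.5 bp, against 1361.5 bp). Peaks under 500 bp numbered 0 of 11 in WT and 7 of 16 in UBR7-KO, against 19.4% and 22.9% of the whole lists. The other list had a counterpart to 6 of the 11 peaks of WT (54.5%), and 40.2% of its whole list had one. For UBR7-KO the same held for 7 of 16 (43.75%), against 35.2% of its whole list. The 6 WT peaks with a counterpart were all 3 of KEAP1, the start-site peak of BACH1 and 2 of HK2. None lay at NFE2L2.

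The windows were also read in bins of 1 kb, called covered when peaks filled at least 50% of the bin. Over hg19, 4.63% of bins were covered in both, 6.76% in WT only and 5.32% in UBR7-KO only. KEAP1 had 17 of 27 bins covered in both, 8 in WT only and 2 in UBR7-KO only. HK2 had 7 of 70 in both, 14 in WT only and 8 in UBR7-KO only. BACH1 had 3 of 56 in both and 1 in each list only, and NFE2L2 had 0 of 43 in both, 1 in WT only and 3 in UBR7-KO only. Bins covered in both lists were above the hg19 share at KEAP1 (63.0%) and HK2 (10.0%), near it at BACH1 (5.36%) and at 0 in NFE2L2. The 2 bins of KEAP1 covered in UBR7-KO only are 7.41% of its bins, near the hg19 share. Neighbouring bins share peaks and are not independent.

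The limit of 5 kb decided 4 memberships, those of the peaks that did not touch a gene span. They were the UBR7-KO peaks 3538 bp upstream of NFE2L2, 2893 bp upstream of KEAP1 and 2644 bp past the end of BACH1, and the WT peak 1682 bp past the end of NFE2L2, which is the only WT peak of that gene. Just outside it were the WT peak 7907 bp upstream of HK2, of 645 bp and with a fold enrichment of 2.03, and the UBR7-KO peak 9539 bp upstream of KEAP1, of 2731 bp and 2.28.

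**Figure D4:**
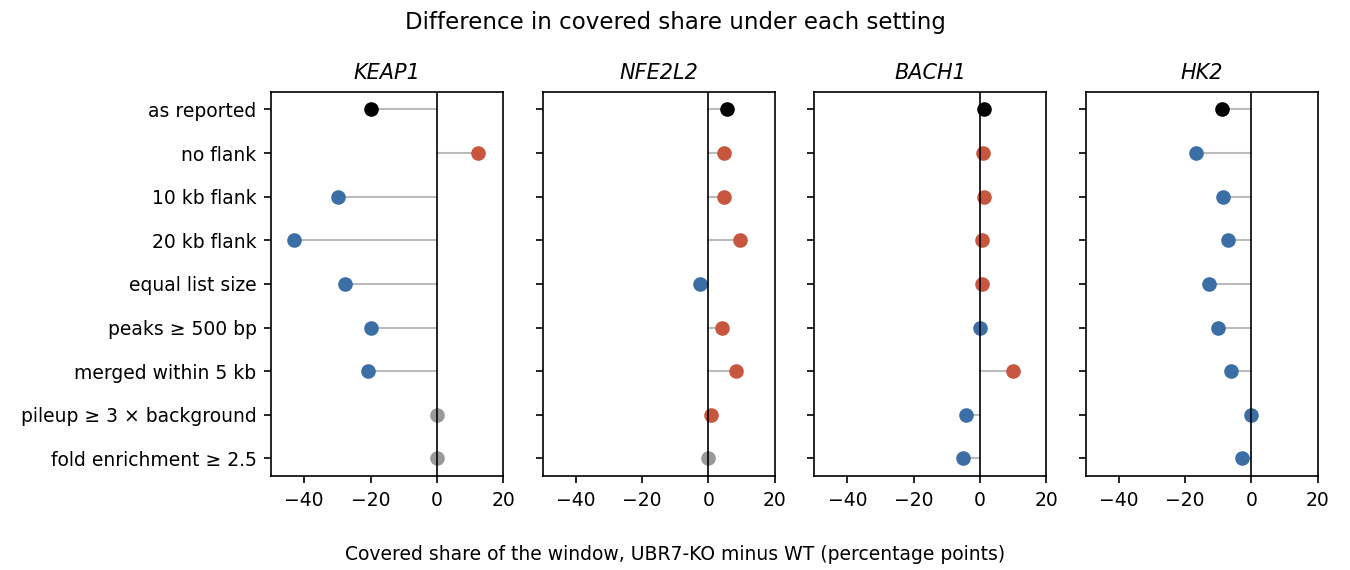
Difference in the covered share of each window, UBR7-KO minus WT (horizontal axis, percentage points), as reported (black) and under each other setting (red above 0, blue below 0, grey at 0). At KEAP1 the difference is -19.9 points as reported and 12.5 points without flanks, and with the limit on fold enrichment KEAP1 and NFE2L2 are at 0 since no peak is left.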

How the data were processed

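H2BK120ub was profiled by ChIP-seq in 1 library of WT and 1 of UBR7-KO cells, grouped by the genotype of the labels. Per the methods, the authors aligned reads to human hg19 with BWA aln, whereas the labels name Bowtie 1.1.2. The authors called peaks with MACS in each library under a q-value limit. Their methods also describe a list for each mark made of peaks that recurred. Whether the deposited lists passed that step is not given. The control library, the mode of the caller and the limit are not given in the sources used here. The deposited pileup is a signal, the fragments stacked over the peak, and scales with depth, which is unknown. The deposited fold enrichment is a ratio of pileup to background within a library, taken here to have 1 added to each. Pileups were compared only within a list and read as a mean along each peak, an assumption that the sources do not settle. The deposited lengths and positions are in bp.

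The 6 blank rows of the UBR7-KO list were dropped. Gene spans came from the rule that defines the members, and strands from general knowledge. Coverage, overlap (at least 1 bp), ranks and the background, recovered as (pileup + 1) over fold enrichment minus 1, were computed with Python 3.11.15, numpy 2.4.6 and pandas 2.3.3, with hg19 chromosome lengths from GenomeInfoDb 1.38.1. On 20 simulated interval sets, coverage was tested against a count base by base. All 4 genes are named, and every peak in their windows is accounted for. The members, lists and settings were chosen with earlier results of these data known. The alternatives were the flank, the size of the start-site region, limits on fold enrichment, background and list size, merging, the overlap rule and the bin size; the limit of 500 bp, the rank by background, the windows laid end to end and the motifs were chosen after seeing the data. Partners of the 4 genes, such as CUL3 and the small MAF genes, were not analysed here, since no hg19 annotation was used.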

Additional observations from a re-analysis of the deposited data

How the results depend on the processing

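Differences are UBR7-KO minus WT in percentage points of covered bases, and a value counted as moved when it changed by more than 1.5 times. The cause of these changes was not tested except where the limit left no peak. A fold enrichment of at least 2.5 left 2 WT and 0 UBR7-KO peaks in the windows (11 and 16 as reported), where it kept 16.9% and 9.77% of the whole lists. The window differences became 0 at KEAP1, 0 at NFE2L2, -5.09 at BACH1 (reversed) and -2.86 at HK2, and the start-site differences 0, 0, -91.1 and 0. Keeping peaks with a pileup 3 or more times the recovered background left 2 and 4 peaks, against 25.3% and 44.9% of the whole lists, with window differences of 0, 0.765, -4.27 (BACH1, reversed) and -0.20 and start-site differences of 0, 0, -91.1 and 0. Lists of equal size gave -2.37 at NFE2L2 (reversed) and 0.75 at BACH1, and 0 at the NFE2L2 start site. Without peaks under 500 bp, 9 UBR7-KO peaks remained and BACH1 reversed to -0.066. Without flanks, KEAP1 reversed to 12.5 and HK2 moved to -16.8. A flank of 20 kb gave -43.1 at KEAP1, 9.69 at NFE2L2 and 0.70 at BACH1. Merging within 5 kb gave 8.47 at NFE2L2, 9.86 at BACH1, 0 at the KEAP1 start site and 8.90 at the BACH1 start site (reversed). With 0.5, 2 and 5 kb on each side, the KEAP1 start site gave -20.9, -17.5 and -11.9 and BACH1 -3.40, -9.92 and -4.91, and with 5 kb NFE2L2 gave 39.3 and HK2 56.5. The other 45 of these values stayed within 1.5 times, as did 53 of 80 peak numbers of single genes.

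No paired analysis was possible because there is 1 library of each genotype, and leaving out a library would leave no comparison. The unknown depth limits any reading of a place without a peak, which says that none passed the caller and not that the mark was absent.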

Other observations

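Outside the windows, neighbouring genes were not placed, so peaks there may belong to them. Within 20 kb of the gene spans, the lists differed most around KEAP1. The WT list had a peak of 43075 bp, 14139 bp past the end of the gene (10539583 to 10582657), of which 1 UBR7-KO peak shared 6482 bp (15.0%), and the UBR7-KO list had no peak on that side within 20 kb of the gene. Around BACH1 the UBR7-KO list had 2 short peaks of 935 and 491 bp upstream, and the WT list had 1 of 761 bp, 11926 bp past the gene. Around NFE2L2 the UBR7-KO list had peaks of 1783 and 2946 bp, 11099 and 15419 bp past the gene, and the WT list had none beyond its member peak. Around HK2 the WT list had peaks of 645 and 500 bp upstream, 7907 and 12202 bp away, and the UBR7-KO list had 1 of 316 bp, 12572 bp past the gene.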
